A study of Mus musculus with 12 samples.

Results

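Cytosolic ribosomal proteins are the protein parts of the ribosome that translates nuclear-encoded mRNA. They were compared between KHR-NICD and KHR mouse oral tumours. The genes were taken by symbol from the array's annotation: those that begin with Rpl or Rps and a number, together with Rplp0, Rplp1, Rplp2 and Rpsa. The ribosomal S6 kinases, which modify the ribosome and are not part of it, accounted for 7 probes with a similar symbol and were left out. There were 66 such genes with 84 of the array's 25697 probes. Of these, 57 genes and 68 probes passed the detection filter, out of 8420 genes and 11721 probes in all, where a kept probe needed a detection p-value under 0.05 in 6 or more of the 12 tumours.

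The series holds 12 oral tumours grown in FVB x C57BL/6 F1 mice, each hybridised to 1 Illumina MouseRef-8 v2 bead array. There were 6 KHR-NICD and 6 KHR tumours, all taken after 21 days of growth. The labels do not spell out KHR or say how either tumour type was made. NICD is the usual abbreviation of the Notch intracellular domain, the part of the Notch receptor that enters the nucleus. The tumours are labelled biological replicates. Whether they came from different animals is not stated, and p-values here reflect only how much these 12 samples varied.

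Proteins named Rpl belong to the large ribosomal subunit, which forms peptide bonds, and those named Rps to the small subunit, which reads the mRNA. Rplp0, Rplp1 and Rplp2 form the stalk that recruits elongation factors. Most of their mRNAs begin with a C followed by a run of pyrimidines, the terminal oligopyrimidine tract, through which mTOR complex 1 controls their translation, largely without changing how much mRNA is present. MYC and the RNA polymerases I and III set much of the supply of the other ribosome parts. Rapidly growing tumours often carry high levels of ribosome components. Some genes in the set are relatives with tissue-restricted or non-ribosomal roles, such as Rpl3l, a muscle paralogue of Rpl3.

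The starts of 7 of these genes are shown so that the pyrimidine runs and E-box counted below can be seen in place. They are 6 genes taken by p-value and Rpl3l, the member with the widest spread between tumours. Each stretch runs from 60 bases before to 20 bases after the annotated start, 5′ to 3′ on the gene's own strand, from RefSeq on GRCm38.p6. The first 6 are the genes with the smallest p-values that have an entry. In them capitals mark CTTTCC, a pyrimidine run, which stands in the stretches of Rpl35a, Rpl35 and Rpl28. It does not stand in those of Rps15a, Rps26 and Rps3a1. Another pyrimidine run, CTCTTT, is not marked and stands in all of these stretches except that of Rps3a1. In Rpl3l capitals mark CAGCTG, a sequence of the E-box class that muscle regulatory factors can bind. Rpl35a has 3 listed starts and Rpl3l has 2, and the start with the marked sequence nearest to it is shown. Both stretches were thus picked by the mark.
Rpl35a, chr16:33056422-33056501, plus strand: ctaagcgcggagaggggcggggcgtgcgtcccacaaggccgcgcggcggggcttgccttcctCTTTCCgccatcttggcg
Rps15a, chr7:118116128-118116207, minus strand: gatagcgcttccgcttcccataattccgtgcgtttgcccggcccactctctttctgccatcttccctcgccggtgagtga
Rps26, chr10:128626487-128626566, minus strand: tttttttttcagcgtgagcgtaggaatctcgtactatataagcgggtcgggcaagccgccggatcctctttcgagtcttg
Rps3a1, chr3:86142649-86142728, minus strand: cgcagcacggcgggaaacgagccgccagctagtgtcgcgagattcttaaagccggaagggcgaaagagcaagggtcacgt
Rpl35, chr2:39005112-39005191, minus strand: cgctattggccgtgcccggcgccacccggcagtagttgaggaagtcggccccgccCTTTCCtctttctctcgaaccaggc
Rpl28, chr7:4792905-4792984, plus strand: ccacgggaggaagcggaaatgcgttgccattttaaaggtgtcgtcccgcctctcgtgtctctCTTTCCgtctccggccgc
Rpl3l, chr17:24727766-24727845, plus strand: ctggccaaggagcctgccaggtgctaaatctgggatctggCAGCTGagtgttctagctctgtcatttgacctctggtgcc

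RefSeq starts were found for 57 of the 66 genes, 68 starts in all, and were set beside 32851 starts of all genes over a window of 250 bases before to 50 after the start. On the transcript strand CTTTCC stood in 24 of the 68 windows (35.3%), against 14.1% of all windows. Within 20 bases of the start it stood in 13.2%, against 1.95% of all starts, and CTCTTT in 11.8%, against 1.54%. Either of them stood there in 20.6%, against 3.29%. The annotated start was itself a C in 18 of the 68 (26.5%), against 16.3% of all starts. Most of the annotated starts used here therefore did not begin with a C. On either strand CCGGAA, the core sequence of many ETS-family sites, stood in 44.1%, against 14.9% of all windows. On either strand CAGCTG stood in 4.41%, against 16.3% of all windows. These are counts of letters, and no binding was measured.

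Raw array quality differed little between the tumour types. The share of probes detected was 43.6 to 48.1% on every array. The highest probe signal was 24556 to 27130 on the arrays of replicates 1 to 3 and 21249 to 23829 on those of replicates 4 to 6, with 3 KHR-NICD and 3 KHR tumours in each set. The labels do not call these sets batches, and values within each set are given below. All 12 stratified squamous epithelium markers, among them the keratins Krt5 and Krt14, passed the detection filter, and their mean log2 value was 11.45 to 11.73 in KHR-NICD and 11.46 to 11.90 in KHR tumours. Eif2s3y, a Y-linked gene, was detected in KHR-NICD tumours 1 and 4 and in KHR tumours 4, 5 and 6, so the share of Eif2s3y-positive tumours differed between the groups.

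No cytosolic ribosomal protein gene was called different between KHR-NICD and KHR tumours. At a Benjamini-Hochberg adjusted p under 0.05 in limma, 0 of 57 genes were called in either direction, against 17 of all 8420 genes (0.202%), of which 8 were higher (0.095%) and 9 lower (0.107%) in KHR-NICD tumours. At an unadjusted p under 0.05 there were 2 genes, Rpl35a and Rps15a, or 3.51% of the 57, against 13.9% of all genes. The ranges of the groups overlapped for every one of the 57, whereas they did not overlap for 1.57% of all genes. No member was called by the alternative fits that were run over genes.

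The differences were small and leaned upward. The KHR-NICD minus KHR log2 difference was above 0 for 47 of the 57 genes (82.5%), against 51.1% of all genes. Its median was 0.06, beside 0.01 over all genes, and it ran from -0.13 for Rpl28 to 0.34 for Rps3a1. With each array centred on its median in place of quantile normalisation, 16 of 57 were above 0 and the median was -0.03, beside -0.08 over all genes, so the sign of the lean depended on the scaling. In both scalings the members' median lay above that of all genes. For 52 of the 57 genes (91.2%) the 95% interval of the difference lay within 0.5 of 0 on the log2 scale, against 68.2% of all genes. These shares were not matched for probe signal.

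**Figure D1:**
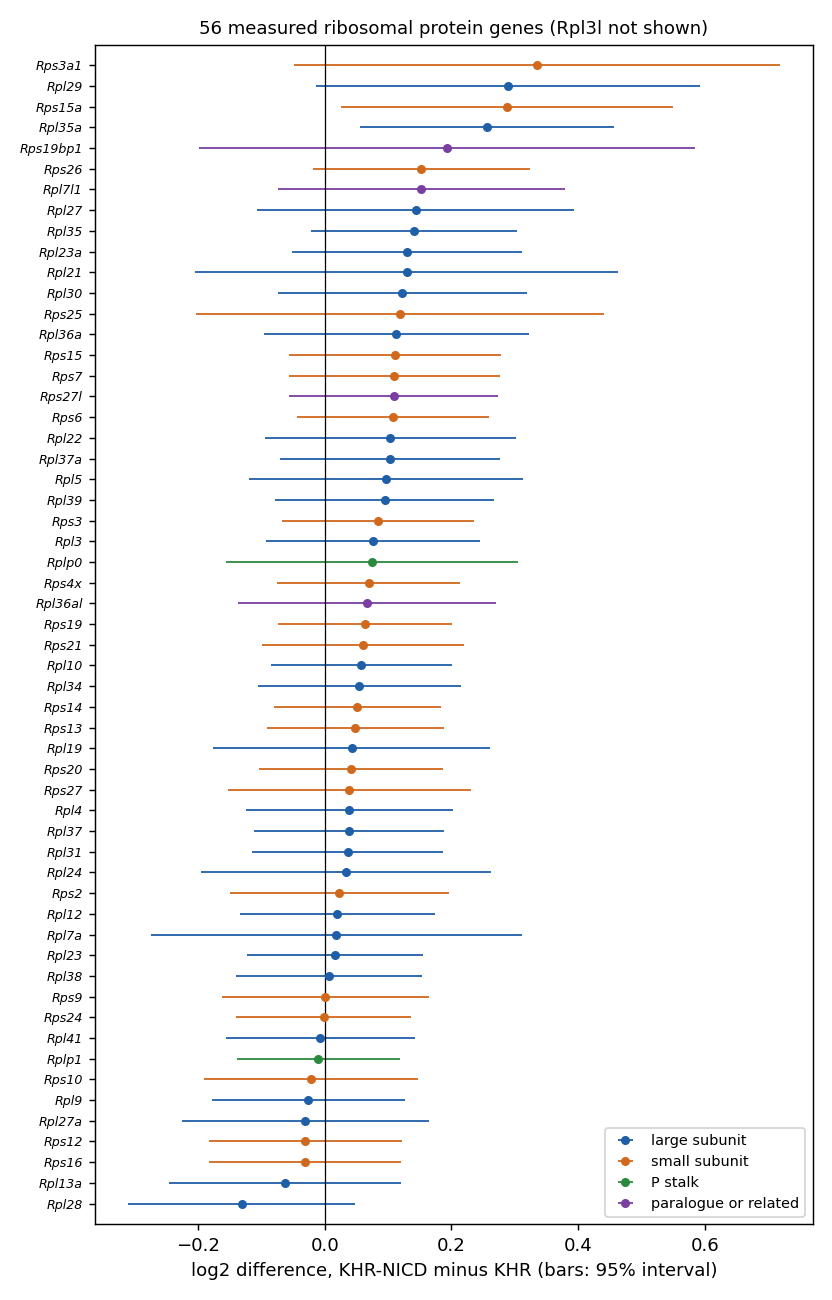
Log2 difference, KHR-NICD minus KHR, of 56 measured ribosomal protein genes (Rpl3l, whose interval is much wider, is not shown), from quantile-normalised values of 6 tumours per group. Points are estimates and bars 95% intervals from limma, coloured by subunit. The estimates run from -0.13 for Rpl28 to 0.34 for Rps3a1, and only the intervals of Rps15a and Rpl35a leave out 0.

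Averaged over the 56 measured genes other than Rpl3l, the log2 level was 12.70 ± 0.04 in KHR-NICD and 12.63 ± 0.04 in KHR tumours (SD, n = 6 each). The tumours ran from 12.67 to 12.77 in KHR-NICD and from 12.57 to 12.69 in KHR tumours, so the groups overlapped. Among replicates 1 to 3, 44 of 57 genes were above 0 with a median difference of 0.08. Among replicates 4 to 6, 40 of 57 were above 0 with a median of 0.05. In the tumours with Eif2s3y, 2 KHR-NICD against 3 KHR, 39 of 57 were above 0 with a median of 0.05. In those without it, 4 KHR-NICD against 3 KHR, 44 of 57 were above 0, also with a median of 0.05. The medians over all genes in these sets were 0.01, 0.01, -0.005 and 0.01, in the same order. The lean was therefore present in each set of tumours under quantile normalisation. Both splits divide the same tumours, and among KHR tumours they coincide, since replicates 4 to 6 are those with Eif2s3y. The sets are thus not independent of each other.

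**Figure D2:**
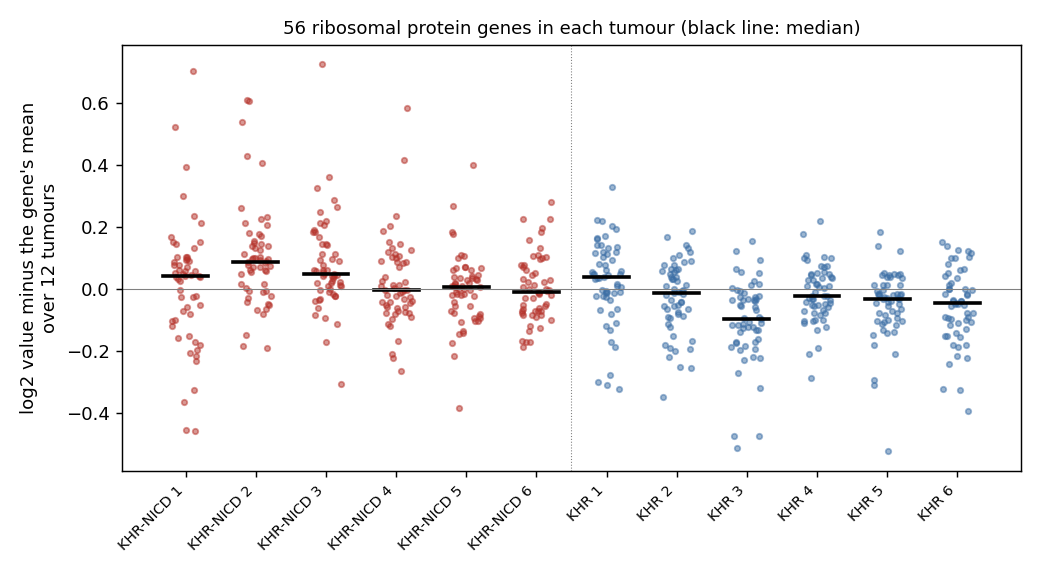
Each point is 1 of 56 ribosomal protein genes in 1 tumour, as its log2 value minus that gene's mean over the 12 tumours, and the black line is the median of the tumour. Medians are -0.01 to 0.09 in the 6 KHR-NICD tumours (left) and -0.09 to 0.04 in the 6 KHR tumours (right), and the groups overlap.

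Large-subunit genes made up 29 of the measured set. Their median difference was 0.05, and 24 of 29 were above 0, with 0 called. Rpl35a, a protein whose human gene is mutated in some cases of Diamond-Blackfan anaemia, had the smallest p-value of all members. Its log2 value was 12.05, 12.22 and 12.50 (lowest, median, highest) in KHR-NICD tumours and 11.80, 11.97 and 12.14 in KHR tumours. The lowest KHR-NICD tumours lay among the highest KHR tumours. The difference was 0.26 (SE 0.09), with a limma adjusted p of 0.236, and it was 0.30 among replicates 1 to 3 and 0.21 among replicates 4 to 6.

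Rpl29, a large-subunit protein also known for binding heparin and heparan sulfate, ran 12.22, 12.46 and 12.89 in KHR-NICD tumours, against 11.85, 12.20 and 12.56 in KHR tumours. The ranges overlapped, and the difference of 0.29 (SE 0.14) had a limma adjusted p of 0.379. It was 0.65 in the tumours with Eif2s3y and 0.09 in those without it. Rpl28 was the member with the lowest difference. Its values were 13.35, 13.55 and 13.69 in KHR-NICD tumours and 13.53, 13.64 and 13.81 in KHR tumours, again overlapping, with a difference of -0.13 (SE 0.08) and a limma adjusted p of 0.506.

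The other large-subunit genes at the low end were close to 0. Rpl13a, which in human cells also takes part in silencing inflammatory mRNAs outside the ribosome, differed by -0.06. The differences of Rpl27a and Rpl9 were both -0.03. Rpl23, a protein that can bind MDM2, had an SD of 0.06 over the 12 tumours, and of 0.14 with median centring. It ran 14.20, 14.26 and 14.31 in KHR-NICD tumours and 14.16, 14.24 and 14.38 in KHR tumours, a difference of 0.02 with a 95% interval of -0.12 to 0.15. Rpl5, which with Rpl11 and 5S rRNA forms the particle that binds MDM2 when ribosome assembly fails, ran 12.65, 12.89 and 13.22 in KHR-NICD tumours and 12.68, 12.82 and 13.00 in KHR tumours. The KHR-NICD range of Rpl5 held the whole KHR range, and the difference was 0.10 (SE 0.10).

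Small-subunit genes made up 21 of the measured set, with 17 above 0, a median difference of 0.06 and 0 called. Rps15a, a small-subunit protein, was the other member with an unadjusted p under 0.05. It ran 6.51, 6.76 and 7.002 in KHR-NICD tumours and 6.28, 6.32 and 6.79 in KHR tumours. KHR tumours 1 and 2, at 6.72 and 6.79, lay inside the KHR-NICD range, and the other KHR tumours lay below it. The difference was 0.29 (SE 0.12), with a limma adjusted p of 0.316. The kept Rps15a probe was dim, with raw signals of 175 to 277 beside array medians of 140 to 178.

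Rps3a1, which lies near the place where mRNA leaves the small subunit, had the largest difference of any member. Its values were 9.77, 10.04 and 10.76 in KHR-NICD tumours and 9.52, 9.90 and 10.20 in KHR tumours. The KHR-NICD tumours reached higher, yet their lower values lay inside the KHR range. The difference was 0.34 (SE 0.18), with a 95% interval of -0.05 to 0.72 and a limma adjusted p of 0.425. Rps26, a neighbour at the mRNA exit whose human gene is mutated in some cases of Diamond-Blackfan anaemia, ran 13.81, 14.01 and 14.05 in KHR-NICD tumours, against 13.58, 13.84 and 13.94 in KHR tumours. Those ranges overlapped as well, and the difference was 0.15 (SE 0.08) with a limma adjusted p of 0.415.

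Rps24 and Rps14 were among the 4 members with the smallest SD between tumours under quantile normalisation, with SDs of 0.06 and 0.05. With median centring their SDs were 0.13 and 0.10. Rps24, another gene mutated in some human cases of Diamond-Blackfan anaemia, ran 14.00, 14.14 and 14.17 in KHR-NICD tumours and 14.05, 14.12 and 14.18 in KHR tumours, a difference of -0.0016 (SE 0.06). Rps14, whose human gene lies in the region lost in the 5q- syndrome, ran 13.84, 13.89 and 13.97 in KHR-NICD tumours and 13.80, 13.82 and 13.91 in KHR tumours. Its difference was 0.05 (SE 0.06), and the groups overlapped. Rps16 and Rps12, both core small-subunit proteins, each differed by -0.03.

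Of the 3 stalk genes, 2 were measured. Rplp1 had the smallest SD of the 57 members over the 12 tumours under quantile normalisation, at 0.03. It ran 14.44, 14.51 and 14.55 in KHR-NICD tumours and 14.48, 14.50 and 14.55 in KHR tumours, and the difference was -0.01 (SE 0.06). Its raw signals of 20828 to 26130 lay close to the highest signal of each array, where quantile normalisation leaves values nearly equal between arrays, and with median centring its SD was 0.15, rank 20 of 57, where Rps6 had the smallest at 0.09. Rplp0, which anchors the stalk and is often used as a reference gene, ran 9.73, 9.86 and 10.29 in KHR-NICD tumours and 9.67, 9.84 and 10.06 in KHR tumours. Its difference of 0.07 (SE 0.11) was within the spread of either group. Rplp2 had no kept probe.

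The members varied less between tumours than most genes. The median SD over the 12 tumours was 0.12 for the members, against 0.23 for all genes, and 0.16 against 0.26 with median centring. Across the 57 genes the Spearman correlation of mean level with SD was -0.77, so that brighter probes varied less. These points share the same 12 arrays and the same normalisation. The comparison of SDs with all genes was not matched for probe signal, so it does not separate the members from other bright probes. Within an array, the standard error between beads of 1 probe had a median of 0.04 on the log2 scale.

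The X-linked members Rpl10, Rpl36a, Rpl39 and Rps4x were all measured, and 0 were called. Their median difference was 0.08, with all 4 above 0, beside 82.5% of all members. With median centring Rpl10 (-0.021), Rpl36a (-0.0088) and Rpl39 (-0.0093) were below 0. Rps4x, which in human has a Y-linked partner, ran 14.18, 14.26 and 14.34 in KHR-NICD tumours and 14.10, 14.20 and 14.29 in KHR tumours, a difference of 0.07 (SE 0.07). Rpl39, which lines the exit tunnel of the large subunit, differed by 0.09 (SE 0.08). Rpl10, a protein that in yeast joins the large subunit late in its assembly, differed by 0.06 (SE 0.07). The group ranges of these 3 genes overlapped, as did those of Rpl36a, which differed by 0.11 (SE 0.10).

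Among the paralogues and related genes, 5 of 8 on the array were measured, and all 5 were above 0 with 0 called. Of all members 82.5% were above 0. With median centring Rpl36al (-0.035), Rps27l (-0.028) and Rpl3l (-0.024) were below 0, and the kept probes of Rpl7l1 had opposite signs. Rpl36al, an autosomal relative of Rpl36a, ran 13.13, 13.54 and 13.63 in KHR-NICD tumours and 13.28, 13.42 and 13.56 in KHR tumours, a difference of 0.07 (SE 0.09). Rps27l, a relative of Rps27 that p53 induces in human cells, ran 12.58, 12.77 and 12.88 in KHR-NICD tumours and 12.50, 12.63 and 12.73 in KHR tumours. The Rps27l groups overlapped, with a difference of 0.11 (SE 0.08), beside 0.04 (SE 0.09) for Rps27. Rps19bp1 binds Rps19 and is not a ribosome subunit. It ran 5.95, 6.32 and 7.03 in KHR-NICD tumours and 6.08, 6.21 and 6.45 in KHR tumours, so the KHR range lay inside the KHR-NICD range, and the difference was 0.19 (SE 0.18). That difference was 0.72 in the tumours with Eif2s3y and -0.06 in those without it. The Rps19bp1 probe was dim, with raw signals of 169 to 261 beside array medians of 140 to 178. Rps19 itself differed by 0.06 (SE 0.06), and its second kept probe, also dim, differed by 0.31 (SE 0.24).

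Rpl3l was the member that varied most, and it varied within both groups. Rpl3l replaces Rpl3 in ribosomes of skeletal and heart muscle. Its log2 value was 6.36, 7.19, 8.47, 6.14, 8.32 and 8.05 in KHR-NICD tumours 1 to 6, and 9.27, 9.14, 8.16, 4.56, 6.80 and 6.15 in KHR tumours 1 to 6. Both the highest and the lowest tumour were KHR. The probe was detected in 6 KHR-NICD and 5 KHR tumours. Its lowest raw signal was 124, beside array medians of 140 to 178, so the lowest value lay at background level. The means were 7.42 ± 1.01 in KHR-NICD and 7.35 ± 1.85 in KHR tumours (SD, n = 6 each), and the difference was 0.08 (SE 0.75) with a 95% interval of -1.54 to 1.70. Its sign was opposite in the sets of replicates: -1.52 among replicates 1 to 3 and 1.67 among replicates 4 to 6. Rpl3 showed no such range, with 13.77, 13.86 and 14.07 in KHR-NICD tumours, against 13.68, 13.84 and 13.92 in KHR tumours.

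Skeletal muscle markers moved with Rpl3l from tumour to tumour. The mean log2 value of the 10 measured markers, among them the muscle actin Acta1 and the troponin Tnnt3, was 8.35, 7.84, 9.69, 7.36, 9.23 and 9.04 in KHR-NICD tumours 1 to 6. In KHR tumours 1 to 6 it was 10.36, 10.18, 9.11, 6.94, 8.48 and 7.47. Across the 12 tumours Pearson's r between Rpl3l and this mean was 0.951 and Spearman's rho 0.979, each with a permutation p of 2e-05 (two-sided, 100000 resamples), the smallest those resamples can give. Without the 2 tumours farthest from the median muscle level, KHR 4 and KHR 1, r was 0.935. It was 0.919 within replicates 1 to 3 (exact permutation p 0.0194, n = 6) and 0.958 within replicates 4 to 6 (exact permutation p 0.00278, n = 6). This was the 1 relation of its kind computed. In bulk tissue, fewer muscle cells and less RNA per muscle cell cannot be told apart.

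The tumours with detected Eif2s3y also held the 5 lowest Rpl3l values, from 4.56 to 6.80, and the tumours without it ran from 7.19 to 9.27. Among the 7 tumours without Eif2s3y r was 0.991 (exact permutation p 0.000397, n = 7). No correlation was computed over the 5 with Eif2s3y, which stood in the same order by Rpl3l as by the muscle mean. Of the 12 listed muscle markers 11 were on the array, and Myh4 was detected on at most 1 array. The muscle list itself had 0 of 10 genes called between the tumour types and a median difference of -0.16.

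**Figure D3:**
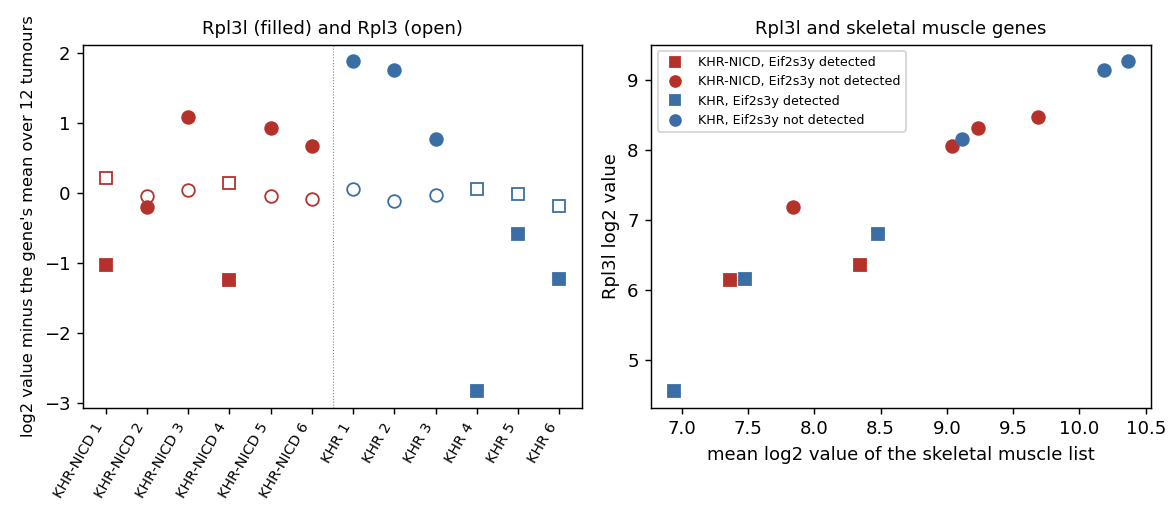
Left, log2 values of Rpl3l (filled) and Rpl3 (open) in each tumour, each as the difference from that gene's own mean over the 12 tumours, with KHR-NICD tumours first. Right, the log2 value of Rpl3l against the mean log2 value of the 10 measured skeletal muscle markers. Squares are tumours in which the Y-linked gene Eif2s3y was detected. Rpl3l spans 4.56, which is at background level, to 9.27 and follows the muscle mean in both tumour types (r = 0.951, n = 12), whereas Rpl3 stays near its mean.

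Probes of the same gene did not always give the same difference. Of the 10 genes with more than 1 kept probe, the dimmest probe gave a larger difference than the brightest in 7 and a smaller one in 3. At the level of probes 0 of 68 were called, against 8 of 11721 in all (0.0683%), and 5 had an unadjusted p under 0.05 (7.35%, against 13.2% of all probes). Of those 5, 4 were higher (5.88%, against 6.31% of all probes) and 1 lower (1.47%, against 6.92%) in KHR-NICD tumours. The files do not give the probe sequences, so it was not tested whether a probe also matches a pseudogene or a single transcript form, and ribosomal proteins have many processed pseudogenes.

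Rps3, which sits where mRNA enters the small subunit and also takes part in DNA repair, had the widest upward gap. Its bright probe differed by 0.08 (SE 0.07). Its dim probe ran 10.55, 10.74 and 11.54 in KHR-NICD tumours and 10.23, 10.45 and 10.64 in KHR tumours, a difference of 0.50 (SE 0.17) with a limma adjusted p of 0.222. KHR-NICD tumours 1 and 4, both with detected Eif2s3y, were the 2 highest, at 11.54 and 11.34. With Eif2s3y detection as a covariate, that difference was 0.57 (SE 0.13) with a limma adjusted p of 0.0497, the only member probe called, beside 238 of all probes (2.03%). In the fit over genes with the same covariate 0 of 57 members were called, beside 216 of all genes (2.57%).

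Rps9, a small-subunit protein whose yeast counterpart affects reading accuracy, differed by 0.00 (SE 0.08) on its bright probe and by 0.35 (SE 0.14) on its dim one. The dim Rps9 probe ran 11.16, 11.35 and 11.66 in KHR-NICD tumours and 10.79, 10.99 and 11.55 in KHR tumours, and these ranges overlapped. Rpl7l1, a relative of Rpl7, gave probes of opposite sign. Its bright probe differed by 0.15 (SE 0.11). Its dim probe ran 5.97, 6.24 and 6.39 in KHR-NICD tumours and 6.35, 6.43 and 6.79 in KHR tumours, a difference of -0.27 (SE 0.10). No direction can be given for Rpl7l1 from these probes.

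**Figure D4:**
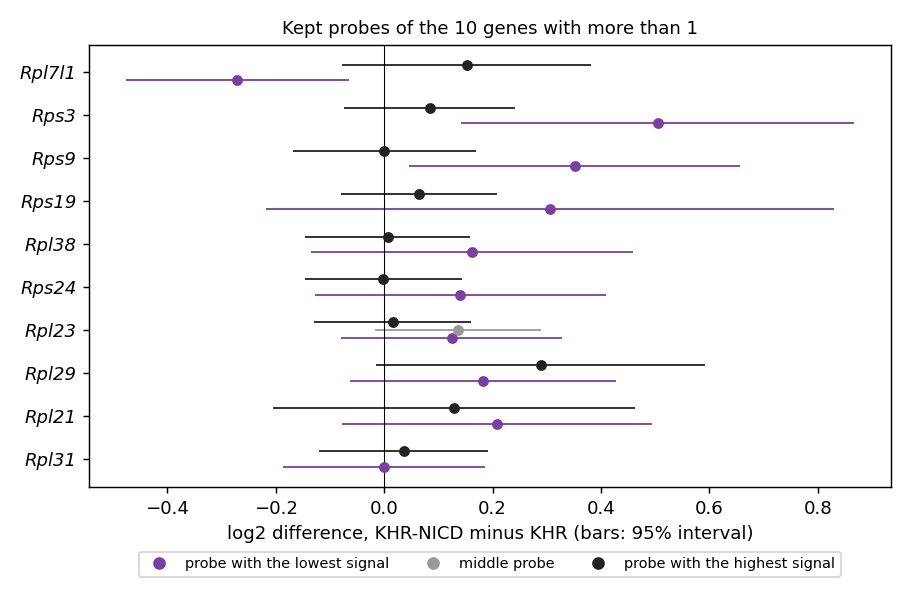
Log2 difference, KHR-NICD minus KHR, of every kept probe of the 10 ribosomal protein genes that have more than 1. Points are estimates and bars 95% intervals from the limma fit over all probes, coloured by the rank of the probe's signal within its gene. For Rps3 the probes give 0.08 and 0.50, for Rps9 0.00 and 0.35, and for Rpl7l1 0.15 and -0.27.

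Another 9 genes had no kept probe: Rpl14, Rpl17, Rpl22l1, Rpl39l, Rpl6, Rplp2, Rps23, Rps23rg1 and Rpsa. For 6 of them no probe was detected on any array. The Rpl22l1 probe was detected in 3 KHR-NICD and 1 KHR tumour, the Rpl6 probe in 3 and 2, and the brighter of the 2 Rpsa probes in 2 and 3. The raw signals of these Rpl22l1, Rpl6 and Rpsa probes were 136 to 185, near the array medians. Rpl6 and Rpsa are core parts of the ribosome, so a low signal here says only that the probe was not well above background.

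The other genes of the ribosome and of translation were also measured, from lists of factors and markers chosen for this purpose, and 0 of 186 were called by limma, against 0.202% of all genes. Of these, 149 were above 0, with a median difference of 0.11. At an unadjusted p under 0.05, 22 were higher in KHR-NICD tumours (11.8%, against 6.83% of all genes) and 3 lower (1.61%, against 7.1%). With median centring 94 of the 186 were above 0, where the median over all genes was -0.08.

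The mitochondrial ribosomal proteins, which build the separate ribosome of the mitochondrion, had the largest median difference of these lists under quantile normalisation. Of 69 measured genes 61 were above 0, with a median difference of 0.13, and 14 (20.3%, against 6.83% of all genes) had an unadjusted p under 0.05 in the higher direction. In the lower direction there was 1, against 7.1% of all genes. With median centring 38 of the 69 were above 0, with a median of 0.04, beside -0.08 over all genes. At an unadjusted p under 0.05, 2 (2.9%, against 2.4% of all genes) were then higher and 1 lower, against 12.1% of all genes. The excess in the higher direction thus depended on the scaling, whereas the median lay above that of all genes in both scalings. Mrpl47 ran 9.26, 9.37 and 9.58 in KHR-NICD tumours and 8.92, 9.12 and 9.20 in KHR tumours. Every KHR-NICD tumour was above every KHR tumour, and the difference was 0.30 (SE 0.09) with a limma adjusted p of 0.144. Mrps9 ran 9.99, 10.06 and 10.16 in KHR-NICD tumours, against 9.63, 9.80 and 9.97 in KHR tumours, also without overlap, a difference of 0.26 (SE 0.07) with a limma adjusted p of 0.154. With Eif2s3y detection as a covariate Mrpl47 (limma adjusted p 0.0285) and Mrpl30 (limma adjusted p 0.0279) were called.

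Ribosome assembly and rRNA processing factors had 43 of 48 genes above 0 and a median of 0.12, or 29 of 48 and 0.02 with median centring. In that scaling the median over all genes was -0.08. Rpf2, which in yeast brings the 5S particle of Rpl5, Rpl11 and 5S rRNA into the large subunit, averaged 7.78 ± 0.19 in KHR-NICD tumours and 7.32 ± 0.22 in KHR tumours (SD, n = 6 each). Only the lowest KHR-NICD tumour lay inside the KHR range, and the difference was 0.46 (SE 0.12) with a limma adjusted p of 0.121. Lsg1, a GTPase of late large-subunit maturation in yeast, ran 10.06, 10.30 and 10.44 in KHR-NICD tumours and 9.83, 9.95 and 10.14 in KHR tumours. Its difference was 0.30 (SE 0.09), with a limma adjusted p of 0.162, and 0.0346 with Eif2s3y detection as a covariate. Brix1, another large-subunit assembly factor, differed by 0.16 (SE 0.07), and Gnl3, a nucleolar GTPase also called nucleostemin, by 0.20 (SE 0.09).

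The remaining lists hold the translation factors and the regulators of ribosome production, and 0 of their genes were called. Elongation factors and other mRNAs with a terminal oligopyrimidine tract had 6 of 8 genes above 0, with a median of 0.09. Fau, which encodes the small-subunit protein eS30 as a fusion, differed by 0.09 (SE 0.08). Initiation factors had 16 of 23 above 0, with a median of 0.07, and the cap-binding protein Eif4e differed by 0.47 (SE 0.17) with a limma adjusted p of 0.248. The Eif4e probe was detected in 5 KHR-NICD and 3 KHR tumours. RNA polymerase I and III genes had 11 of 18 above 0, the mTOR complex 1 arm 5 of 11 and the MYC network 6 of 8, with medians of 0.04, -0.01 and 0.13. The measured MYC network genes were Max, Mlx, Mnt, Mxd1, Mxd3, Mxd4, Mxi1 and Mycl, so neither Myc nor Mycn was measured. The MYC and mTOR lists mix activators with inhibitors, such as Mxd1 and Tsc2. Their medians therefore give no direction of pathway activity.

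**Figure D5:**
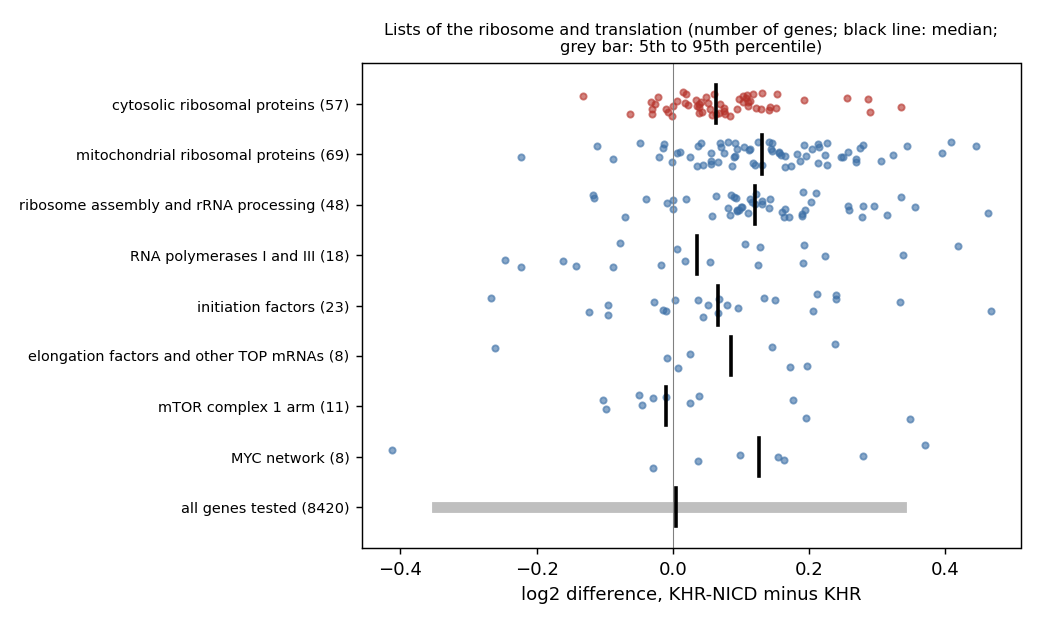
Log2 difference, KHR-NICD minus KHR, of each measured gene in the cytosolic ribosomal protein set and in 7 other lists, with the median of each as a black line and, for all 8420 genes, a grey bar from the 5th to the 95th percentile. Medians are 0.06 for cytosolic and 0.13 for mitochondrial ribosomal proteins, beside 0.01 for all genes, under quantile normalisation; with median centring these 3 medians are -0.03, 0.04 and -0.08.

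Markers of other cell types were read beside these values. Of the fibroblast markers 7 of 8 were on the array and all 7 were measured, 6 were above 0, and their mean log2 value was 6.93 to 7.73 in KHR-NICD and 6.73 to 7.49 in KHR tumours. The epithelial list had 4 of 12 genes above 0. The neutrophil list had 0 of 5 above 0, with mean log2 values of 8.88 to 9.68 in KHR-NICD and 9.13 to 9.58 in KHR tumours. The macrophage list had 3 of 5 above 0 and the endothelial list 1 of 6, with medians of 0.10 and -0.20. The ranges of all these list means overlapped between the groups, but single markers differed more. The fibroblast genes Col3a1, Lum and Col1a2 were higher at an unadjusted p under 0.05, with differences of 0.55, 0.80 and 0.44 and limma adjusted p of 0.215, 0.248 and 0.322. The epithelial cadherin Cdh3 ran 9.31, 9.36 and 9.67 in KHR-NICD tumours and 9.72, 9.86 and 10.17 in KHR tumours, without overlap, a difference of -0.48 (SE 0.09) with a limma adjusted p of 0.0656. The desmosomal cadherin Dsg3 differed by -0.68 (limma adjusted p 0.112) and the endothelial gene Vwf by 0.58 (limma adjusted p 0.209). The T cell and B cell lists had 1 measured gene each, and the B cell markers Ms4a1, Cd79a and Cd79b were detected on 0 arrays. Whether cell type content had a part in the small lean of the ribosomal protein genes was not tested. A fit with the muscle level as a covariate left 48 of 57 genes above 0 and a median of 0.07. The muscle mean differed by -0.17 between the groups, beside SDs of 0.89 and 1.40. That fit could therefore move the lean little and does not address the other cell types. The fibroblast mean, which differed by 0.30, was not used as a covariate.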

How the data were processed

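Total RNA of 12 tumours was labelled as biotin cRNA and hybridised to 1 bead array each, per the labels' protocols. GenomeStudio and Partek are named without versions in the submitters' processing notes, and no source used here gives further steps. The authors deposited for each array the mean bead intensity of every probe, not normalised between arrays, with a detection p-value, a bead count and a bead standard error (linear signal scale), per the file headers. The authors' second deposited table holds their processed intensity values, with a median of 16.4 to 16.7 per array and the same within-array order. It served as an alternative.

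Intensities were background-corrected and quantile-normalised with limma's neqc (version 3.58.1, R 4.3.3, offset 16) on the log2 scale. Probes were kept with a detection p under 0.05 on at least 6 arrays. The probe with the highest mean stood for each gene. lmFit and eBayes were run over all 8420 genes, and separately over all 11721 probes, as KHR-NICD minus KHR with Benjamini-Hochberg adjustment at 0.05. The scripts were tested on simulated data. Platform annotation gave a gene for 23978 of 25697 probes, with symbols updated by Entrez identifier for 23962. The number of arrays and the beads behind each probe (17 to 62 for the members) limit the precision, and no pair of arrays was identical.

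The members, lists and alternatives were chosen with earlier results of these data known. Genes named were those with the largest and smallest differences and SDs, the stalk, X-linked and paralogue members with their parent genes, and the 3 genes whose probes disagreed most. From each pathway list up to 4 genes were named by smallest p. Rpl5 was named after its values were seen. Alternatives covered normalisation, filter, probe choice, covariates, blocks and leaving out each tumour. Replicate numbers did not pair the tumours, since the correlation of same-numbered tumours ran from -0.22 to 0.45.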

Additional observations from a re-analysis of the deposited data

Results flagged for a closer look

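In 3 of the 64 groups of 6 tumours checked, 1 tumour stood apart from the others of its group by more than Dixon's 95% criterion, which chance meets in about 1 of 20 groups. The log2 value of Rpl36al in KHR-NICD tumour 1 was 13.13, below the other KHR-NICD tumours at 13.47 to 13.63. The Rps14 value in the same tumour was 13.97, above the others at 13.84 to 13.89. The Rps26 value in KHR tumour 3 was 13.58, below the other KHR tumours at 13.82 to 13.94.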

How the results depend on the processing

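The 0 calls among the member genes held in every alternative run, including each tumour left out. These runs measured 54 to 66 members, depending on the filter and on the members included. With the replicate block, which pairs tumours by replicate number, 0 member genes and 0 member probes were called, and the block changed no member's call. Over all genes 17 were called in the reported fit, 1 with the replicate block, 31 with a block of replicates 1 to 3 and 4 to 6 (chosen after seeing the data), 54 with median centring, 99 with the muscle level as a covariate, 125 with array weights and 216 with Eif2s3y detection as a covariate. With each tumour left out, 1 to 24 were called over all genes. The members' median difference was 0.048 to 0.076 with each tumour left out and -0.035 with median centring. Among member probes 1 was called with the Eif2s3y covariate, and among the 186 pathway genes 1 with array weights (Rpf2) and 5 with that covariate. The cause was not tested.

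Signs were compared only for the 31 measured members that the naming rule picked. Of their pairs of 1 gene and 1 alternative, 65 changed the sign of the difference and 895 did not, and no changed value was called. Over all 57 members the number above 0 went from 47 in the reported fit to 16 with median centring, so more members changed sign than are listed here. With median centring the difference was -0.089 for Rps9, -0.078 for Rpl23, -0.061 for Rps27, -0.035 for Rpl36al, -0.032 for Rps14, -0.028 for Rps27l, -0.027 for Rplp0, -0.024 for Rpl3l, -0.021 for Rpl10, -0.0093 for Rpl39, -0.0088 for Rpl36a and -0.0087 for Rps3. With array weights it was -0.017 for Rps9, 0.0040 for Rps24, 0.0046 for Rps16, 0.0084 for Rpl9 and 0.019 for Rpl27a. With cyclic loess it was 0.0051 for Rps12, 0.010 for Rpl9, 0.028 for Rps24 and 0.063 for Rplp1. With the mean of a gene's probes it was -0.059 for Rpl7l1 and 0.070 for Rps24, and with the dimmest probe (chosen after seeing the data) -0.27 and 0.14. For Rpl3l it was -0.33 with the Eif2s3y covariate, -0.048 with an offset of 50 and -0.089 without background correction. For Rps24 it was 0.0012 with the muscle covariate. Within tumours with Eif2s3y it was -0.17 for Rpl36al, -0.14 for Rplp0, -0.076 for Rps27, -0.0011 for Rpl23, 0.010 for Rpl13a and 0.074 for Rps24. Within tumours without Eif2s3y it was -0.85 for Rpl3l, -0.061 for Rps19bp1, -0.034 for Rps9, -0.0066 for Rpl3, 0.0039 for Rplp1 and 0.029 for Rps12. With each tumour left out it ranged from -0.0030 to 0.042 for Rpl23, -0.080 to 0.0097 for Rpl27a, -0.48 to 0.46 for Rpl3l, -0.055 to 0.0025 for Rpl9, -0.020 to 0.0024 for Rplp1, -0.057 to 0.0071 for Rps12, -0.015 to 0.022 for Rps24, -0.0099 to 0.082 for Rps27 and -0.030 to 0.037 for Rps9.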
